A study of Mus musculus with 4 samples.

Results

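The cells described here are the immune cells of mouse tracheas that had received a transplant of airway basal cells, picked out by their RNA from 4 single-cell libraries. A cell was taken when it had at least 500 detected genes, at least 3 unique molecular identifiers (UMIs, each counting 1 captured RNA molecule) in all from Ptprc, Laptm5 and Coro1a, under 20 UMIs per 10,000 from the ciliated cell genes Foxj1, Ccdc153, Dynlrb2 and Fam183b, and under 10 UMIs per 10,000 from the basal cell keratins Krt5 and Krt15. Ptprc encodes the leukocyte surface phosphatase CD45, Laptm5 a lysosomal membrane protein of blood cells and Coro1a an actin-binding protein of leukocytes. The rule found 97 cells among 6784 barcodes. Their kinds were then read from marker genes such as Cd3e (T cells) and C1qa (macrophages). Lyz2, a gene known in macrophages, and H2-Aa, known in antigen-presenting cells, are described for each library but set no kind.

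Adult wild-type mice had their tracheal epithelium injured with 2% polidocanol, a detergent, and 5 hours later received 6000000 basal cells into the trachea. The iBC recipient, of strain label 129 X1/S1, was given iBCs, which the series title describes as basal cells derived from embryonic stem cells, and its trachea was taken at 192 days. The primary BC recipient, of strain label C57BL/6, was given primary basal cells and its trachea was taken at 69 days. Each trachea was digested with pronase, and cells positive for the live-cell dye Calcein Blue were sorted into GFP-positive (donor-derived) and GFP-negative (endogenous) fractions, with 1 library made from each on the 10X Chromium system. The labels describe 1 recipient trachea of each kind, so animal, strain, days since transplantation and kind of donor cell cannot be told apart. With 1 library per group no difference was tested: the 95% intervals below are exact (Clopper-Pearson for shares, Poisson for counts) and cover counting error only.

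The airway wall holds macrophages, which engulf particles and dying cells, and dendritic cells, which take up antigen in and under the epithelium and carry it to lymph nodes. Both show peptides on MHC class II, a surface dimer encoded in mice by H2-Aa, H2-Ab1 and H2-Eb1, with Cd74 as the invariant chain that occupies the groove until it is loaded. Conventional dendritic cells that bear Xcr1 are known for presenting captured antigen to CD8 T cells, plasmacytoid dendritic cells for making type I interferon, and mature dendritic cells for Ccr7, Fscn1, Ccl22 and Ccl17. MHC class II genes are switched on through the coactivator CIITA, which docks on factors bound at the X and Y boxes of their promoters.

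The immune cells of both endogenous libraries carried H2-Aa and H2-Eb1 RNA at high levels, so the promoters of these genes are shown, from 250 bases before to 50 bases after the RefSeq start (GRCm38.p6). H2-Aa lies at chr17:34282744-34287823 on the minus strand and its window at chr17:34287774-34288073. H2-Eb1 lies at chr17:34305867-34316674 on the plus strand and its window at chr17:34305617-34305916. The capitals mark the letters CTGATTGG, the core of the Y box, in each sequence read 5′ to 3′ along the gene's strand.
H2-Aa: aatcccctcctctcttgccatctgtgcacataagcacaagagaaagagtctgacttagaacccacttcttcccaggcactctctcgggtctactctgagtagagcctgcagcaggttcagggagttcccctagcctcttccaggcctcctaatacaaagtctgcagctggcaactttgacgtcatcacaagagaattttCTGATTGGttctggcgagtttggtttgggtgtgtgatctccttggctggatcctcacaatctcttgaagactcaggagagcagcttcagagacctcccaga
H2-Eb1: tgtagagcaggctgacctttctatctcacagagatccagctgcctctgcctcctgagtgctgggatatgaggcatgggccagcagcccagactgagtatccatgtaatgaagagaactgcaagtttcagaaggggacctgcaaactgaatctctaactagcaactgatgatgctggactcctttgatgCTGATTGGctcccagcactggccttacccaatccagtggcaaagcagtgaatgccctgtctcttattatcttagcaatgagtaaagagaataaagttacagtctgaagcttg
Each window held the motif once, 51 bases before the start in H2-Aa and 62 bases before it in H2-Eb1. Searched on both strands, 1346 of 32851 RefSeq promoter windows of this length (4.10%) held these letters. A match describes the letters and does not show binding. The 2 sequences are 2 of 3 looked for, H2-Ab1 being the other.

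Immune cells were most numerous among the endogenous cells of the primary BC recipient. In the iBC recipient, 1 of 1596 donor-derived cells (0.0627%, interval 0.00159 to 0.349%) and 24 of 1890 endogenous cells (1.27%, interval 0.815 to 1.88%) met the rule. Among primary BC recipient cells, 3 of 1874 donor-derived ones (0.160%, interval 0.0330 to 0.467%) and 69 of 1418 endogenous ones (4.87%, interval 3.81 to 6.12%) met it. In each recipient the GFP-positive fraction held fewer immune cells than the GFP-negative fraction, with intervals that did not overlap. As the fractions were sorted on GFP, the label of donor cells, this is a description. The 1 iBC donor-derived cell and 1 of the 3 primary BC ones carried more epithelial than leukocyte RNA. Between the endogenous fractions the intervals also did not overlap.

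The libraries held 21504563 to 26625123 UMIs each. The immune cells accounted for 18008, 250077, 55723 and 892570 UMIs in the iBC donor-derived, iBC endogenous, primary BC donor-derived and primary BC endogenous libraries. An endogenous immune cell had a median of 8542.5 UMIs in the iBC trachea and 11612 in the primary BC trachea, against 9306.5 and 14416 in the other cells of the same libraries. Mitochondrial RNA made up at most 8.30% of any immune cell. A total of 2 barcodes were shared between libraries, neither of them an immune cell. The doublet caller Scrublet marked 5 of the 97 cells, 3 in the iBC and 2 in the primary BC endogenous library, which were 1 T-like, 1 B-lineage and 1 unassigned cell of the iBC and 1 Xcr1+ and 1 B-lineage cell of the primary BC recipient.

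**Figure D1:**
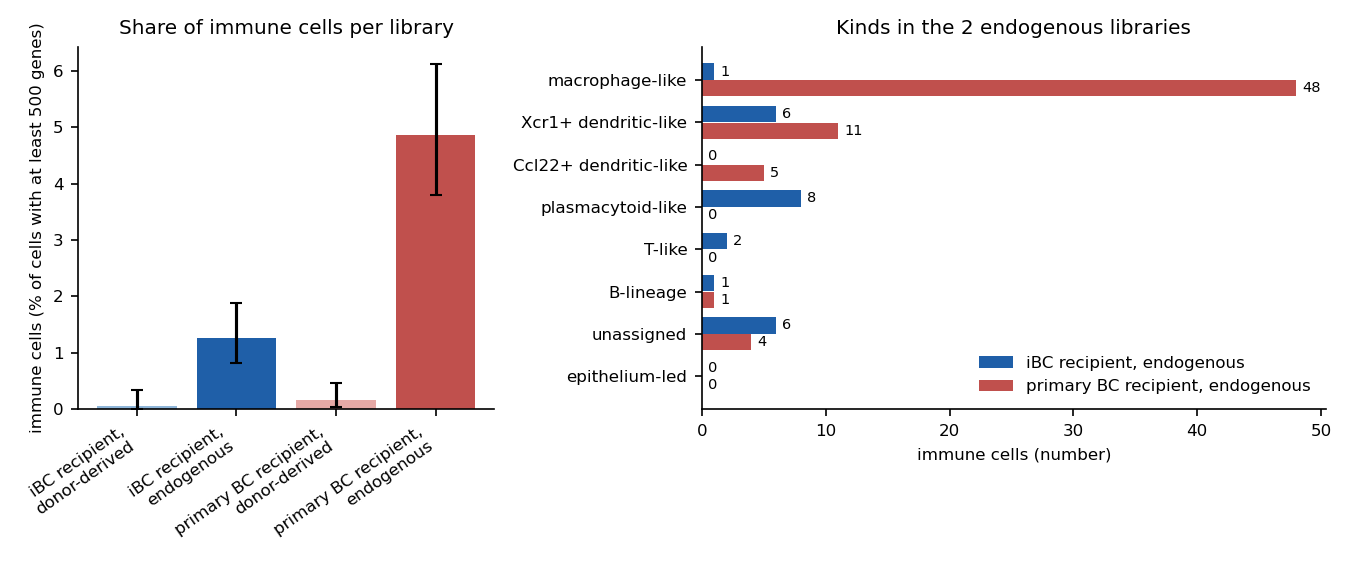
Left, share of immune cells among cells with at least 500 genes in each library, with exact 95% intervals as error bars (1 library per bar). Right, number of cells of each kind in the endogenous libraries of the iBC recipient (24 cells) and the primary BC recipient (69 cells); plasmacytoid-like cells lead in the iBC recipient with 8 and macrophage-like cells in the primary BC recipient with 48.

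Most endogenous immune cells well exceeded the limit of the rule, with a median of 23 UMIs from its 3 genes in the iBC trachea (4 to 55) and of 23 in the primary BC trachea (4 to 119). Only 4 such UMIs were held by 1 iBC and 2 primary BC endogenous cells. As these genes chose the cells, this is a description. Exactly at 3 UMIs were only 2 cells, 1 in each donor-derived library, and both carried more epithelial than leukocyte RNA. Just outside, with 2 UMIs, were 1 iBC donor-derived, 1 iBC endogenous and 2 primary BC endogenous cells. The limit on Krt5 and Krt15 kept out 2 cells of each endogenous library, and the ciliated limit kept out none. Among 12 further leukocyte genes that the rule did not use, such as Cd52, Tyrobp and Srgn, the endogenous immune cells had 7226 CPM (UMIs of the genes per 1000000 UMIs of the summed cells) in the iBC trachea and 8803 CPM in the primary BC trachea. The other cells had 312 and 259 CPM of them. The label of immune cells therefore held for the endogenous libraries, whereas 2 of the 4 donor-derived cells were led by epithelial genes and are described last.

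Each cell was given a kind from raw UMIs of a few markers, with limits set with the data at hand. A cell was T-like with at least 3 UMIs of Cd3e, Cd3d and Cd3g, B-lineage with 3 of Cd79a and Cd79b, plasmacytoid-like with 8 of Siglech, macrophage-like with 5 of C1qa, C1qb and C1qc, Ccl22+ dendritic-like with 5 of Ccr7, Fscn1 and Ccl22, and Xcr1+ dendritic-like with 3 of Xcr1 and Clec9a. Where a cell passed several limits the first in this order applied, and a cell with more UMIs over 6 epithelial genes than over 12 leukocyte genes was set apart as led by epithelial genes. As the limits were set on these data, the gaps around them are a description. T-cell receptor complex UMIs numbered 34 or more inside and 0 outside. C1q UMIs had a median of 170 inside, but 8 in the lowest and 9 in the next lowest cell, against 3 or fewer outside. For Siglech the gap was narrow too, with 8 UMIs in the lowest cell inside and 5 in the highest outside. A Ccl22+ cell also held 8 UMIs of Xcr1 and Clec9a, more than the 6 of the lowest Xcr1+ cell. In the iBC recipient, the 24 endogenous immune cells were 8 plasmacytoid-like (33.3%, interval 15.6 to 55.3%), 6 Xcr1+ dendritic-like (25.0%, interval 9.77 to 46.7%), 2 T-like, 1 B-lineage and 1 macrophage-like, with 6 unassigned (25.0%). In the primary BC recipient, the 69 were 48 macrophage-like (69.6%, interval 57.3 to 80.1%), 11 Xcr1+ dendritic-like (15.9%, interval 8.24 to 26.7%), 5 Ccl22+ dendritic-like (7.25%) and 1 B-lineage, with 4 unassigned (5.80%). Plasmacytoid-like and T-like cells numbered 0 of 69 in the primary BC recipient, which allows a share of up to 4.35% by 3 counts and 5.21% by the exact interval. Ccl22+ cells numbered 0 of the iBC recipient's 24, a count that allows up to 12.5% by 3 counts and 14.2% by the exact interval. With under 3 UMIs of Epcam, Krt8 and Krt18 required of each cell, the iBC endogenous share was 0.741% (14 cells), and 0 Xcr1+ cells remained in that library and 3 in the primary BC endogenous one. Myeloid and dendritic kinds made up most cells of both libraries, and lymphoid kinds 3 of 24 and 1 of 69.

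**Figure D2:**
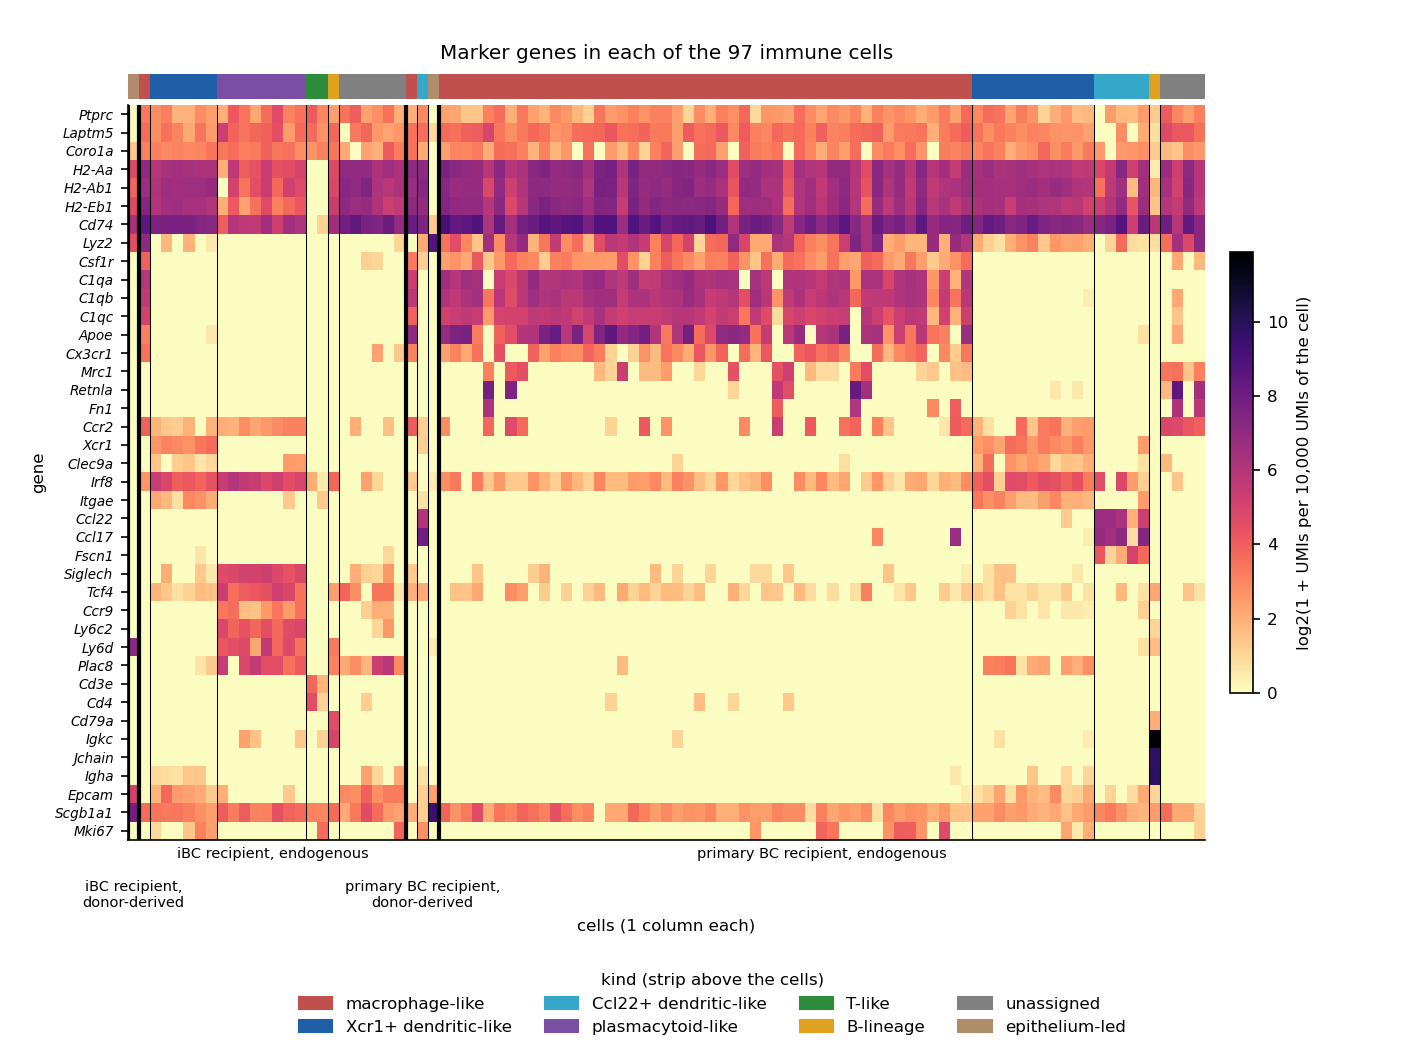
Each column is 1 of the 97 immune cells, each row a gene, and the colour gives log2(1 + UMIs per 10,000 UMIs of the cell); the strip above shows the kind and thick lines part the libraries. H2-Aa and Cd74 fill nearly all columns except the T-like cells, whereas the C1q genes fill the macrophage-like block and Siglech the plasmacytoid-like block.

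Cd3e, which encodes the epsilon chain of CD3, marked very few cells. Its UMIs came from 2 of 24 immune cells in the iBC endogenous library (19 UMIs, 76.0 CPM, interval 45.7 to 119 CPM) and from 0 of 69 in the primary BC endogenous library. No other cell of either library had a UMI of it. T cells by this marker were thus detected in the iBC recipient alone, at 2 cells.

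Lyz2, which encodes lysozyme, was frequent in macrophage-like cells, in other immune kinds and in the other cells. It was present in 5 of 24 immune cells of the iBC recipient (114 UMIs, 456 CPM, interval 376 to 548 CPM), and 103 of those UMIs were in the 1 macrophage-like cell. In the primary BC recipient it was present in 68 of 69 (2789 UMIs, 3125 CPM, interval 3010 to 3243 CPM). There a macrophage-like cell had a median of 13 UMIs, an unassigned cell 40 and an Xcr1+ cell 8, with UMIs in 11 of 11 Xcr1+ cells. Among the other cells of the same libraries, 57.8% (4093 CPM) and 70.0% (5787 CPM) had a Lyz2 UMI, at median depths of 9306.5 and 14416 UMIs. After each cell was thinned to 3000 UMIs, which left out 0 immune cells and 9 other cells of the iBC recipient, 12.5% of immune cells had one in the iBC trachea and 82.6% in the primary BC trachea, against 47.9% and 47.6% of the other cells. In the iBC recipient the share among immune cells was thus below that of the other cells, and the part of free RNA in these UMIs was not tested. Lyz2 on its own does not separate macrophages from the epithelium in these libraries.

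H2-Aa, the alpha chain of the I-A molecule, was near universal in the immune cells. It was detected in 22 of 24 in the iBC trachea (1478 UMIs, 5910 CPM, interval 5613 to 6219 CPM) and in 69 of 69 in the primary BC trachea (7968 UMIs, 8927 CPM, interval 8732 to 9125 CPM). The other cells of those libraries had 65.1 CPM, in 20.1% of cells, and 8.58 CPM, in 4.97% of cells. The other genes of the module were abundant too. H2-Ab1 stood at 6658 CPM in the iBC and 8613 CPM in the primary BC immune cells, H2-Eb1 at 5462 and 8291 CPM and Cd74 at 13760 and 21979 CPM. Ciita, the coactivator of the promoters shown above, had 316 and 204 CPM. The donor-derived epithelium of the iBC recipient also carried H2-Aa, in 70.4% of its cells at 464 CPM, against 1.55% at 2.86 CPM in the primary BC donor-derived epithelium.

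Per cell, the summed H2-Aa, H2-Ab1, H2-Eb1 and Cd74 UMIs differed between kinds, with overlap. The lowest, median and highest macrophage-like cell of the primary BC recipient had 98.0, 573 and 1081 such UMIs per 10,000. The Xcr1+ cells had 386, 437 and 477 in the iBC trachea and 252, 405 and 596 in the primary BC trachea, so that their ranges overlapped. The plasmacytoid-like cells of the iBC recipient had 21.7, 123 and 200, all below its Xcr1+ cells. Its 2 T-like cells had 0 and 1.10. The Ccl22+ cells of the primary BC recipient had 94.1, 360 and 790.

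**Figure D3:**
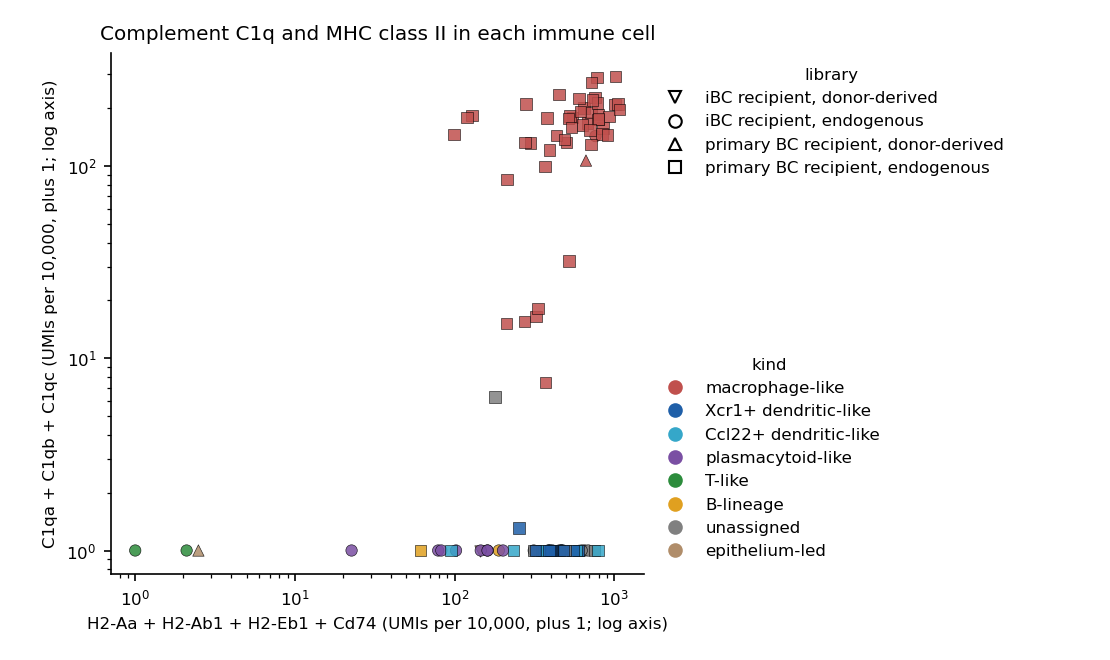
Each point is 1 immune cell, placed by its summed MHC class II and Cd74 UMIs (x) and its summed C1q UMIs (y), both per 10,000 plus 1 on log axes; colour gives the kind and shape the library. Macrophage-like cells stand at 6.46 to 292 C1q UMIs per 10,000 in the primary BC endogenous library, while nearly all other immune cells lie at 0 along the bottom.

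The macrophage-like cells of the primary BC recipient formed the largest kind, with 48 cells and 552894 UMIs. C1qa, C1qb and C1qc encode the chains of complement C1q and lie side by side at chr4:136895917-136898803, chr4:136880129-136886187 and chr4:136889804-136893065, all on the minus strand. They had chosen the cells and stood at 5853, 5540 and 3583 CPM, as a description. Macrophage genes that had not been used were nearly as regular. Csf1r, the receptor for the growth factor CSF1, was detected in 48 of 48 cells (714 CPM) and the cathepsin gene Ctss in 48 (2760 CPM). Apoe, a lipid carrier, was the most abundant of the named macrophage genes at 7669 CPM, in 43 cells. Ms4a7 was detected in 42 (1167 CPM), Adgre1, which encodes F4/80, in 41 (253 CPM), Cx3cr1, the fractalkine receptor, in 38 (687 CPM) and Trem2, a lipid-sensing receptor, in 36 (266 CPM). Marco, a scavenger receptor, and Chil3 had 0 UMIs, whereas Itgax, the integrin chain CD11c, was detected in 37 cells (304 CPM). Of the cytokine genes, Il1b stood at 143 CPM in 23 cells and Tgfb1 at 204 CPM in 38 cells, whereas Tnf was sparse at 3.62 CPM in 2 cells. Among chemokines, Cxcl16 stood at 895 CPM in 44 cells and Ccl6 at 586 CPM in 33.

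Mrc1, the mannose receptor CD206, was uneven among these 48 cells: 9 had at least 5 UMIs per 10,000 and 39 had fewer, with 2 cells between 3 and 8. This division was drawn after the values were seen and is a range, not a type. MHC class II and Cd74 had a median of 212 UMIs per 10,000 in the 9 cells (98.0 to 433), against 681 in the 39 (273 to 1081). Lyz2 ran the other way, with medians of 76.5 and 9.82 UMIs per 10,000. Retnla, which encodes a secreted protein of alternatively activated macrophages, had UMIs in 7 of the 9 cells and 0 of the 39. The scavenger receptor gene Cd163 was detected in 6 and 0, the folate receptor gene Folr2 in 5 and 0, the hyaluronan receptor gene Lyve1 in 4 and 0, and Cx3cr1 in 0 and 38. C1qa had closer medians, 52.1 and 67.5 UMIs per 10,000. Thus cells rich in Mrc1 were poor in MHC class II and lacked Cx3cr1, and the reverse held for nearly all others. Across the 48 cells, Spearman's rho of MHC class II was -0.51 with Mrc1, -0.56 with Retnla and -0.63 with Itgam. It was 0.47 with Apoe and 0.47 with C1qa. These values describe cells of 1 library and share each cell's total UMIs as denominator. MHC class II also went with total UMIs at a rho of -0.42, and the part of depth in these patterns was not tested.

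**Figure D4:**
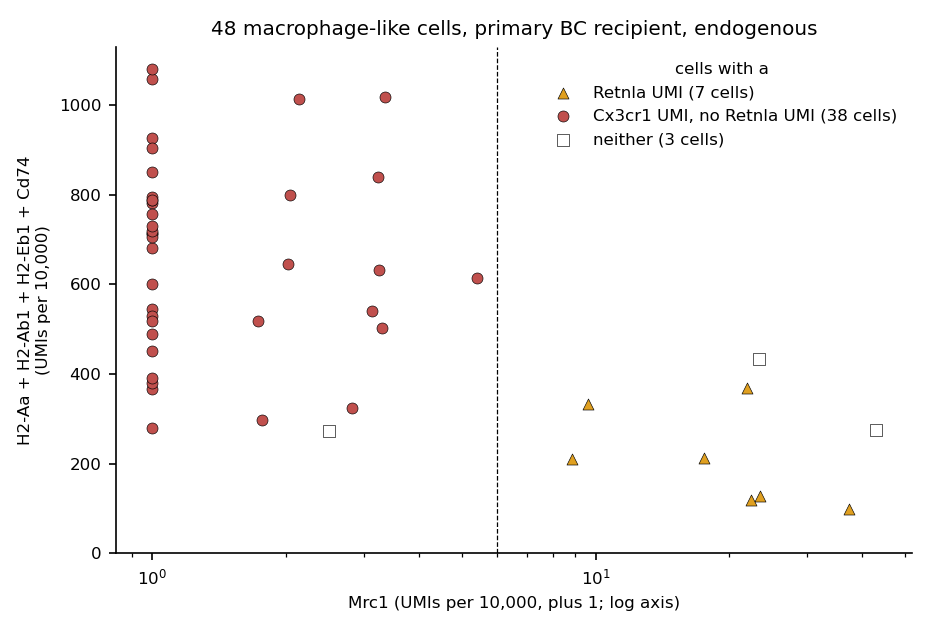
Each point is 1 of the 48 macrophage-like cells of the primary BC endogenous library, with Mrc1 per 10,000 plus 1 on a log axis (x) and summed MHC class II and Cd74 UMIs per 10,000 (y); the dashed line marks 5 Mrc1 UMIs per 10,000. The 7 cells with Retnla lie right of the line, where no cell exceeds 433 on the y axis, and the 38 with Cx3cr1 but no Retnla lie left of it.

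Macrophage-like cells outside that library numbered 2. The 1 in the iBC endogenous library had 47 UMIs of C1qa, 38 of C1qb, 26 of C1qc, 11 of Csf1r, 8 of Cx3cr1, 103 of Lyz2 and 100 of H2-Aa. It had 6 UMIs of Apoe. The 1 in the primary BC donor-derived library had 26, 36 and 10 UMIs of C1qa, C1qb and C1qc, 91 of Apoe, 6 of Csf1r, 5 of Cx3cr1 and 0 of Lyz2. It had 0 UMIs of EGFP, although it came from the GFP-positive fraction. Both had Cx3cr1 and MHC class II levels of 763 and 665 UMIs per 10,000, within the range of the 39 cells low in Mrc1.

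The Xcr1+ dendritic-like cells were the only kind with more than 1 cell in both endogenous libraries, 6 with 97405 UMIs in the iBC trachea and 11 with 213579 UMIs in the primary BC trachea. Xcr1, the receptor for the chemokine XCL1, lies at chr9:123852315-123862029, and Clec9a, a receptor for exposed actin of dead cells, at chr6:129408862-129424763. As the genes that chose the cells they are given as a description: Xcr1 had 801 CPM in the iBC trachea and 660 CPM in the primary BC trachea, and Clec9a 103 CPM (10 UMIs) and 337 CPM (72 UMIs). Irf8, Itgae, Tlr3 and H2-Aa differed by less than 1.5-fold. Irf8, the lineage's defining transcription factor, stood at 2125 CPM in the iBC trachea and 1681 CPM in the primary BC trachea. Itgae, the integrin chain CD103, stood at 380 and 435 CPM, Tlr3, a sensor of double-stranded RNA, at 442 and 379 CPM, and H2-Aa at 7628 and 7168 CPM. Epcam, an epithelial adhesion gene, had 3 to 15 UMIs in each of the 6 cells and 1 to 13 in each of the 11. All 6 thus fail the limit of under 3 UMIs of Epcam, Krt8 and Krt18 given above, and only 3 of the 11 pass it. In the primary BC recipient, 1 Xcr1+ cell of 32452 UMIs held 412 UMIs of secretory cell genes and 131 of ciliated cell genes and was marked by Scrublet.

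Of 1294 genes compared between the summed Xcr1+ cells, 27 were higher in the iBC recipient (2.09%) and 40 lower (3.09%), where higher or lower means a CPM ratio of at least 2 and an interval that stays at least 1.5-fold from equality. The median over all of them was 0.01 on the log2 scale. The genes named in this paragraph were chosen after their values were seen. Ifi44, an interferon-stimulated gene, had 236 CPM in the iBC recipient, with UMIs in 6 of 6 cells, against 23.4 CPM in the primary BC recipient, with UMIs in 1 of 11 (ratio 10.1, interval 3.75 to 34.0). In the other cells of the libraries Ifi44 stood at 42.4 and 26.0 CPM. Irf7, the factor that amplifies interferon transcription, had 267 CPM in 3 cells, against 18.7 CPM. Of the 16 listed interferon-stimulated genes, 4 had enough UMIs to be compared and 2 of them were higher, with a median log2 ratio of 1.98. Summed over the list, the iBC cells had 1386 CPM and the primary BC cells 581 CPM. In the donor-derived libraries, the cells outside the rule had 910 CPM of the list in the iBC and 386 CPM in the primary BC recipient. The list difference was therefore not particular to Xcr1+ cells. Ftl1-ps1, taken up again below, had a larger ratio than Ifi44 in the Xcr1+ cells, 63.6 (58 UMIs against 2). Cxcl9, a chemokine induced by interferon gamma, had 236 CPM in 3 cells, against 14.1 CPM in 1 cell. Mki67 and Top2a, genes of dividing cells, were higher at 287 and 329 CPM in the iBC recipient, against 89.0 and 122 CPM in the primary BC recipient. Plac8 was lower, at 41.1 CPM against 421 CPM. Spint1, a membrane inhibitor of serine proteases, had 0 UMIs in the 6 iBC cells and 28 in the primary BC cells, with UMIs in 11 of 11, while the other cells of the libraries stood at 87.3 and 86.6 CPM. Kmo, an enzyme of tryptophan breakdown, had 0 UMIs in the 6 cells and 20 in the 11. Samhd1, which limits viral replication by breaking down nucleotides, was higher at 370 CPM against 74.9 CPM. Of 6 compared secretory cell genes, 4 were lower, with a median log2 ratio of -2.04, and their part in the other differences was not tested.

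Plasmacytoid-like cells were found in the iBC endogenous library alone, 8 cells with 43535 UMIs and a median of 5962.5 UMIs per cell. Siglech, a sialic acid-binding receptor of this lineage encoded at chr7:55768178-55778925, had 8 to 24 UMIs per cell and 2894 CPM, and had chosen the cells. Other genes of the lineage, not used for the choice, were also abundant. Tcf4, the factor that sets plasmacytoid identity, stood at 2228 CPM, Irf8 at 3629 CPM, the interferon-induced membrane gene Bst2 at 2159 CPM, the gut-homing receptor gene Ccr9 at 643 CPM and Cox6a2, a subunit of cytochrome oxidase, at 919 CPM in 6 of 8 cells. Ly6c2, Ly6d and Plac8 stood at 2021, 2090 and 2297 CPM. Immunoglobulin heavy chain RNA from Ighm was also present at 1011 CPM. Bst2, itself a plasmacytoid marker, gave 94 of their 103 UMIs of the interferon-stimulated list, and other listed genes gave the rest. Isg15, Oasl2 and Rtp4 of that list had 0 UMIs. With 43535 UMIs in all, these counts cannot tell a low level from none, and an interferon response was not tested. They had 0 UMIs of Lyz2 and 0 of the listed chemokines.

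The Ccl22+ dendritic-like cells numbered 5 in the primary BC endogenous library, with 59540 UMIs. With at least 5 UMIs of the rule's genes required, 3 of the 5 remained. Ccl22 and Ccl17, which encode chemokines that attract T cells bearing CCR4, lie at chr8:94745590-94751699 and chr8:94810453-94812036. Ccl22, used for the choice, had 4 to 96 UMIs per cell and 5794 CPM, and Ccl17 had 1 to 242 UMIs per cell and 9943 CPM. Relb, a transcription factor of mature dendritic cells, stood at 907 CPM, Il4i1 at 1411 CPM and Il12b, a subunit of interleukin-12, at 386 CPM in 3 of the 5 cells. The cells were uneven: 1 held 107 UMIs of Ccl5, and 2 held all the Apol7c UMIs, at 1209 CPM. A further cell, in the primary BC donor-derived library, had 100 UMIs of Ccl22, 354 of Ccl17 and 209 of H2-Aa. It had 0 of Ccr7, Fscn1 and EGFP and 9 of Mki67.

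Lymphoid cells were few. The 2 T-like cells of the iBC recipient had 12 and 7 UMIs of Cd3e, 18 and 13 of Cd3d, 10 and 14 of Cd3g, 21 and 3 of Cd4 and 0 of Cd8a. The first, which Scrublet marked, had 46 UMIs of Nkg7, 159 of Ccl1, 9 of Xcl1 and 4 of Ifng. The second had 26 UMIs of Ikzf2, 3 of Foxp3, 6 of Ctla4, 6 of Icos and 11 of Tnfrsf4, genes known together in regulatory T cells, and 32 of the proliferation gene Mki67. Both therefore carried Cd4 without Cd8a but differed in their other genes. The B-lineage cell of the iBC recipient, also marked by Scrublet, had 21 UMIs of Cd79a, 13 of Ms4a1, which encodes CD20, 29 of Igkc and 85 of Cd74. The B-lineage cell of the primary BC recipient, marked as well, had 10519 UMIs of Igkc, 2710 of Igha and 2394 of Jchain, the genes of a plasma cell making IgA, and 155 of Cd74.

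The remaining cells followed no kind. The 6 unassigned cells of the iBC recipient had 313 to 687 MHC class II and Cd74 UMIs per 10,000 and each had 2 to 18 UMIs of Epcam. Of the 4 in the primary BC recipient, 2 held 41 and 92 UMIs of Fn1, 206 and 143 of Retnla and 15 and 25 of Ccr2, genes known in monocytes and macrophages. The other 2 held 6 and 27 UMIs of Cd209a, 7 and 29 of Mgl2 and 12 and 21 of Ccr2, genes known in conventional dendritic cells that present to CD4 T cells. Of the cells led by epithelial genes, the 1 in the iBC donor-derived library had 3 UMIs of Coro1a, 60 of Epcam, 151 of Ccl20 and 30 of Spib, and 318 UMIs over the M cell list. The 1 in the primary BC donor-derived library had 3 UMIs of Laptm5, 4843 of Bpifa1, 3317 of Scgb3a1 and 2324 of Scgb1a1, secretory cell genes.

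Reporter RNA was scarce in the immune cells. EGFP was detected in 1 of 1 in the iBC donor-derived library, 0 of 24 in the iBC endogenous, 1 of 3 in the primary BC donor-derived and 4 of 69 in the primary BC endogenous library. Among the other cells of these libraries, 48.0%, 0.0536%, 98.1% and 2.08% had an EGFP UMI. The positive cells of both donor-derived libraries were those led by epithelial genes, with 1 and 10 UMIs. The 4 endogenous ones were macrophage-like with 1 UMI each. At 5.80% of immune cells against 2.08% of the other cells, these rest on 4 UMIs. The 2 donor-derived cells with leukocyte genes had 0 UMIs of EGFP.

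Dividing cells were counted as those with at least 5 UMIs of Mki67 and Top2a, and 17 of the 97 reached this. They were 8 of 48 macrophage-like cells of the primary BC recipient, 3 of 6 Xcr1+ cells of the iBC recipient and 2 of 11 of the primary BC recipient, 1 of the 2 T-like cells, the Ccl22+ donor-derived cell and 1 unassigned cell in each endogenous library. Plasmacytoid-like cells numbered 0 of 8 and Ccl22+ cells of the primary BC recipient 0 of 5. The limit was not scaled to depth. A plasmacytoid-like cell had a median of 5962.5 UMIs, and in the primary BC recipient a macrophage-like cell had 9872 and a Ccl22+ cell 12733. Xcr1+ cells had medians of 16451.5 UMIs in the iBC and 18396 in the primary BC recipient. The part of depth in these counts was not tested.

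The immune sums of the endogenous libraries were then compared over the 2923 of 30907 features with at least 20 UMIs and 50 CPM in either sum: 136 were higher in the iBC recipient (4.65%) and 237 lower (8.11%), with a median ratio of 0.08 on the log2(CPM + 5) scale used for all list medians. Macrophage genes stood on the lower side. All 12 macrophage markers were lower, with a median log2 ratio of -4.22, as were 11 of 12 compared genes of complement and phagocytosis (median -4.16), 7 of 8 Fc and pattern receptors (-2.66) and 9 of 13 lysosomal and lipid genes (-2.02). The last 3 lists share genes with the macrophage markers, such as C1qa, Mrc1, Fcgr1, Lyz2 and Apoe, and are not separate results. Macrophage-like cells were 1 of 24 in the iBC and 48 of 69 in the primary BC recipient, and the sums carry these counts. On the higher side were 4 of 5 plasmacytoid markers (median 3.26) and 4 of 4 compared T cell markers (4.51), which rested on 2 cells. MHC class II genes were more even, with 3 of 10 higher and none lower and a median of -0.12. The 3 were H2-DMb2, H2-Oa and H2-Ob, subunits of the chaperones that govern peptide loading, with H2-Oa at 228 CPM in the iBC and 65.0 CPM in the primary BC recipient. Cell cycle, immediate early, heat shock and mitochondrially encoded genes had 0 of 8, 0 of 7, 0 of 4 and 0 of 12 compared genes past the limit in either direction.

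Many of the largest ratios came mostly from 1 kind. Retnla had 0 UMIs in the iBC and 1249 in the primary BC immune cells, at least 117-fold lower against a floor of 3 UMIs over the iBC sum. That floor is used for each such bound. The exact interval, which also carries the counting error of the larger sum, reaches a ratio of 0.0106 for Retnla, 0.0157 for Ccl17, 0.0380 for Ccl22 and 0.153 for Folr2. Of the Retnla UMIs, 897 came from macrophage-like and 350 from unassigned cells. Ccl17 (0 against 839 UMIs, at least 78.4-fold lower) and Ccl22 (0 against 348, at least 32.5-fold) came mainly from the Ccl22+ cells, with 592 and 345, although 1 macrophage-like cell held 236 UMIs of Ccl17. Fn1, Pf4, F13a1, Mrc1, AA467197, Hpgd, Trem2 and Folr2 also had 0 UMIs in the iBC recipient, against 88 (Folr2) to 336 (Fn1), at least 8.22-fold to 31.4-fold lower. The chemokine list as a whole had 8 of 10 compared genes lower and 2 higher, Ccl1 and Cxcl9. Ccl1, at 636 CPM in the iBC recipient, came from 1 T-like cell.

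In the other direction, Cox6a2 had 40 UMIs in the iBC and 0 in the primary BC immune cells, at least 47.6-fold higher against the same floor (36.9-fold by the exact interval), all 40 of them in plasmacytoid-like cells. Ly6c2 (94 against 3, ratio 112, interval 37.1 to 552), Ly6d (99 against 7, ratio 50.5), Iglc3 (42 against 7, ratio 21.4) and Siglech (142 against 24, ratio 21.1, interval 13.6 to 34.0) also came mainly from them, with 88, 91, 41 and 126 UMIs. Ikzf2 (34 against 6, ratio 20.2) rested on 1 T-like cell with 26. Ltb (45 against 2), Klra17 (24 against 1) and Ptprcap (38 against 4) had ratios of 80.3, 85.7 and 33.9. For Ftl1-ps1, BC018473 and Ly6d the other cells of the libraries differed in the same direction. Ftl1-ps1 had 211 UMIs against 29 in the immune sums. In the other cells it had 1295 CPM in the iBC and 9.46 CPM in the primary BC recipient. BC018473 had 41 against 0 UMIs in the immune sums and 394 against 0.0418 CPM in the other cells. Ly6d had 396 against 7.84 CPM in the immune sums and 390 against 79.2 CPM in the other cells. Ftl1-ps1 is close in sequence to Ftl1, and BC018473 is annotated as antisense while the strand of counting is not given, so both are uncertain. Ly6c2 and Ly6d belong to a family of similar genes and share this limit in part.

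**Figure D5:**
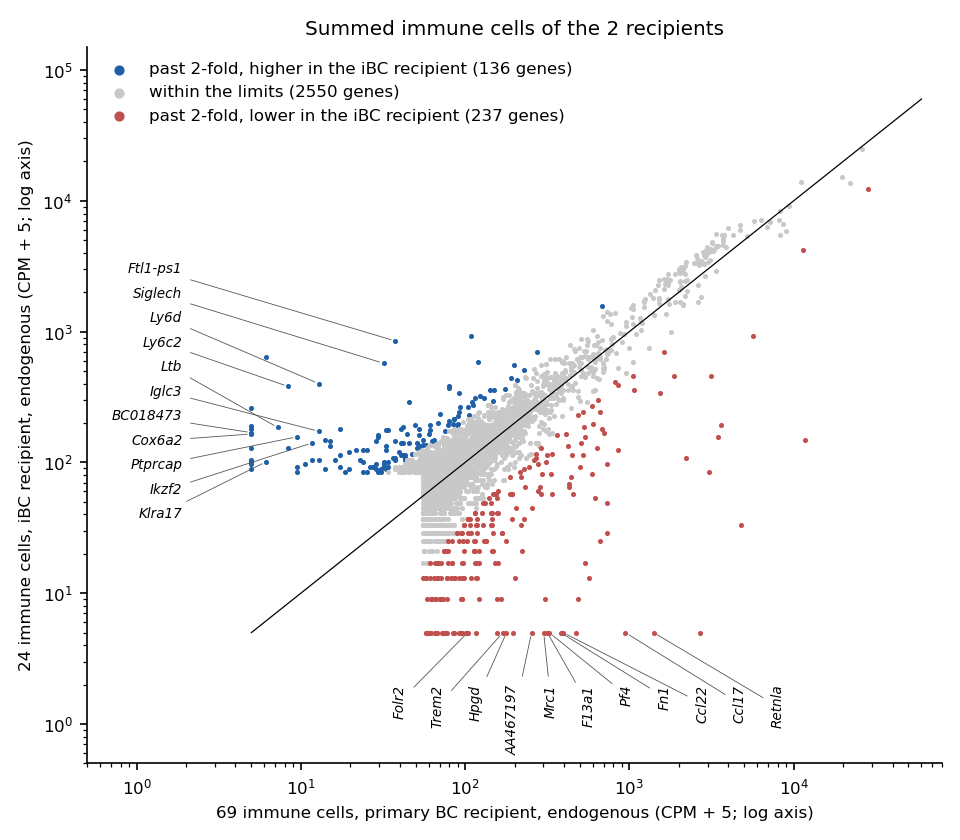
Each point is 1 compared gene, placed by its CPM in the summed immune cells of the primary BC endogenous library (x) and of the iBC endogenous library (y), each plus 5 on log axes; the line marks equal values, and colours mark genes past the limits. The 136 genes higher in the iBC recipient include Siglech and Ly6c2 towards the left, and the 237 lower ones include Retnla, Ccl17 and Ccl22 along the bottom, where the iBC sum has 0 UMIs.

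Against the other cells of its own library, the iBC endogenous immune sum had 726 of 3109 genes higher (23.4%) and 681 lower (21.9%), and that of the primary BC recipient 844 of 3772 higher (22.4%) and 868 lower (23%). As the rule chose the cells by RNA, this is a description. Siglech had 0 UMIs in the other cells of the iBC recipient and was at least 4081-fold higher in the immune cells against a floor of 3 UMIs (3276-fold by the exact interval). Among the 15 largest ratios in each library, 2 genes were common to both, Rnase6 and Cd52. Cd52, a small surface glycoprotein of leukocytes, had 513 UMIs in the immune cells against 16 in the other cells of the iBC recipient (ratio 2764), and 1988 against 17 in the primary BC recipient (ratio 3132). Secretory cell genes, which fill the surrounding epithelium, had a median of 17.2 and 17.8 UMIs per 10,000 in the immune cells, against 289 and 392 in the other cells. Markers of neutrophils gave 1 and 38 UMIs in the immune cells of the iBC and the primary BC recipient, those of NK cells 8 and 16, of mast cells or basophils 14 and 16, of eosinophils 0 and 3 and of erythrocytes 0 and 0.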

How the data were processed

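The submitters' processing notes name Cell Ranger, STARsolo, Seurat and the build GRCm38, without saying which tool made the matrices. The authors deposited, per library, raw UMI counts per gene and cell barcode, which are whole numbers over 30907 features. Which doublets or barcodes had been removed before deposit is not given in the sources used here. In droplet data free RNA can add UMIs to cells that do not express a gene.

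Counts were read with Python 3.11.15, numpy 2.4.6, scipy 1.17.1 and pandas 2.3.3. Shares carry exact Clopper-Pearson 95% intervals and ratios exact Poisson intervals. UMIs were summed per library over immune cells and scaled to CPM (counts per 1000000 UMIs). A gene was compared with at least 20 UMIs and 50 CPM in either sum, and was higher or lower at 2-fold or more with the bound nearest to 1 at least 1.5-fold away. Log2 ratios were taken after adding 5 CPM to each sum, and understate low genes. The comparison was also run on simulated Poisson counts drawn from the summed cells. These held no variation between cells, kinds or animals, so they cannot show how the limits behave under such variation. Doublets were called with Scrublet in scanpy 1.11.5 and kept. Alternative scaling used TMM factors from edgeR 4.0.16 in R 4.3.3, with no count model, since each group has 1 library.

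Named between recipients were the 12 highest and 12 lowest ratios among genes past these limits, with a UMI in at least 5 immune cells of the higher library and at least 10% of the CPM of its other cells. Against other cells the 15 highest ratios with at least 50 CPM were ranked. Listed markers and gene lists may also be named. No kind had 10 cells in both endogenous libraries, so genes within the Xcr1+ cells fall outside the rule. Of the named genes, 2 are not reported here. Members and lists were chosen with earlier results of these data known. Of the listed symbols, 4 (Areg, Bcl11b, Clec7a and Siglecf) are not analysed here, nor is a control trachea that the protocol mentions. Gene positions come from GENCODE vM21 (GRCm38).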

Additional observations from a re-analysis of the deposited data

How the results depend on the processing

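The shares, kinds, levels and counts of genes were recomputed under other settings, which gave 157 values, of which 23 moved beyond the counting interval or by over 1.5 times. No paired analysis was possible because the recipients share no trachea and each group is 1 library; the 2 fractions of a trachea were set side by side and not tested. With 2 UMIs of the rule's genes as the minimum, the endogenous libraries of the iBC and the primary BC recipient gained 1 and 2 cells led by epithelial genes. With 5, the share in the iBC donor-derived library fell to 0 and the Ccl22+ cells of the primary BC recipient to 3. Without the Krt5 and Krt15 limit that library gained 1 cell led by epithelial genes. Without Scrublet doublets, 1 T-like and 0 B-lineage cells were left in the iBC recipient and 0 B-lineage cells in the primary BC recipient. Requiring under 3 UMIs of Epcam, Krt8 and Krt18 had the largest effect on kinds: the iBC endogenous share became 0.741% (14 cells) with 0 Xcr1+ and 2 unassigned cells, the iBC donor-derived share 0, and the primary BC recipient kept 3 Xcr1+ and 0 B-lineage cells. Doubled limits on kinds, chosen after seeing the data, left 5 plasmacytoid-like cells. With 2 UMIs from 2 macrophage markers in place of Lyz2, 15 iBC immune cells were positive. Lyz2 in the iBC recipient stood at 578 CPM as a mean over cells and 653 CPM after thinning, and H2-Aa in the primary BC recipient at 9799 and 10010 CPM. Without a filter on low counts 320 genes were higher in the iBC recipient.

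TMM scaling shifted the median of all genes from 0.08 to -0.11 (log2) and gave 109 genes higher and 288 lower. Over the 24 named genes, 168 of 179 values kept their direction and their side of the limits, 9 lost the limits and 2 reversed. The 24 were named for the largest ratios of these same sums, and removing the filter could not move them. The tally is therefore a description and not a test. In Xcr1+ cells only, an alternative chosen after seeing the data, 27 genes were higher and 40 lower. Within that kind 1 named gene kept its side of the limits, 8 lost the limits and 2 reversed. The 2 were Ikzf2 (-1.52) and Ltb (-0.95) on the log2 scale. Leaving out the cell with most UMIs took Ikzf2 to 1.77. Statements on the donor-derived libraries are limited by their 4 immune cells in all.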
